A study of Mus musculus with 4 samples.

Results

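In the mouse, 10 genes that bring fatty acids into muscle and carry them into mitochondria were followed: Lpl, Cd36, Slc27a1, Fabp3, Acsl1, Slc22a5, Cpt1a, Slc25a20, Cpt2 and Crat. They form a list of genes of uptake, activation and carnitine-dependent entry. Each was read by the brightest transcript cluster (a group of probes summarised as 1 value) that carries its symbol alone. Of the 10, 9 were measured and all 9 passed a filter on level, among 22180 genes measured and 13258 that passed. No cluster of the annotation used here carries the symbol of Acsl1, the main long-chain acyl-CoA synthetase of muscle, and its level was not analysed here.

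Circulating triglyceride is split by lipoprotein lipase at the vessel wall, and the released fatty acids cross the fibre membrane with the help of CD36 and fatty acid transport proteins. Inside the fibre they are bound by FABP3, joined to coenzyme A, and passed to carnitine by carnitine palmitoyltransferase 1. The carnitine ester crosses the inner mitochondrial membrane through the SLC25A20 carrier and is turned back into an acyl-CoA by CPT2 for beta-oxidation. Many of these genes are known targets of the PPAR nuclear receptors.

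Transcript levels were measured on Affymetrix arrays in gastrocnemius, a calf muscle, with 1 array for each of 4 groups: wild-type (WT) mice on citrate vehicle, WT mice treated with streptozotocin (STZ), and animals with a knockout of KLF15 restricted to skeletal muscle (KO) given vehicle or STZ. STZ is a toxin of pancreatic beta cells that lowers insulin; it was injected into the peritoneum at 50 mg/kg in 50 mM citrate of pH 4.5, on each of 5 successive days, the control mice received citrate alone, and muscle was collected 3 weeks later. The Cre driver of the knockout, the strain, the age and sex of the mice and the number of mice behind each array were not given in the sources used. With 1 array per group no test could be run, so higher and lower describe single arrays and no difference has a replicate check.

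The arrays correlated at 0.987 to 0.991 over clusters, which are not independent replicates, and their median intensities lay between 5.73 and 5.96. At percentile 95 the intensity ran from 179.4 on the KO STZ array to 206.8 on the WT STZ array, so bright genes as a whole stood lower on KO STZ. Klf15, the targeted transcription factor, had intensities of 50.5 on WT vehicle, 72.1 on WT STZ, 19.8 on KO vehicle and 16.04 on KO STZ, and both KO arrays were below both WT arrays. All 12 markers of fast fibres and muscle identity lay above the array median on all 4 arrays. Whole muscle was used, so fewer cells of a type and less RNA per cell cannot be told apart.

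Differences are on the log2(intensity + 3.69) scale, with percentile 25 of all values as the offset, and a gene was counted when it differed by 1.5-fold or more (0.585 on this scale). This scale understates the differences of dim genes. The 5 comparisons share arrays: each array enters the genotype comparison of its treatment, the STZ comparison of its genotype, and the difference between the STZ effects. Their values are therefore given side by side and are not independent of each other.

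The sequence before the transcription start is shown for 4 members because KLF15, the deleted factor, is known to bind CACCC and GC-rich elements and PPARs bind a direct repeat of AGGTCA. RefSeq windows of GRCm38.p6, from 250 bases before to 50 after a start, were found for 8 of the 10 members, in 11 windows; Slc27a1 has 3 and Acsl1 has 2, and none was found for Lpl and Crat. The stretch printed runs 5′ to 3′ on the gene's strand from 250 bases before to 30 after the start. Capitals mark CACCC on either strand, and a DR1, which is a pair of AGGTCA elements of 6 letters in a row with 1 base between them and at most 2 mismatches among the 12 letters. Slc27a1 is shown because its first window holds the most CACCC matches among the members, Cd36 and Slc25a20 because they hold the DR1 matches, and Cpt1a for comparison as a gene that was highest on another array.
Slc27a1 (chr8:71568621-71568900, + strand): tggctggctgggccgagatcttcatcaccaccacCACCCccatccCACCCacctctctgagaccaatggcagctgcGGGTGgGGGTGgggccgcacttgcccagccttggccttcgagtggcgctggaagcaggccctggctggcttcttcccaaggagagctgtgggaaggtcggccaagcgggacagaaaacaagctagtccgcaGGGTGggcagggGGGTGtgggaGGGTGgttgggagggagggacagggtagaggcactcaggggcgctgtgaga
Cd36 (chr5:17835867-17836146, − strand): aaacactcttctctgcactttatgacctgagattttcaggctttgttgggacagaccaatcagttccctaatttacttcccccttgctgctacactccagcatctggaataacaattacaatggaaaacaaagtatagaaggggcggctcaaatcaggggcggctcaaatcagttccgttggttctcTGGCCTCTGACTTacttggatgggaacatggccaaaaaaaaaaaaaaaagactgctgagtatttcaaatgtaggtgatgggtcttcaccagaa
Slc25a20 (chr9:108661886-108662165, + strand): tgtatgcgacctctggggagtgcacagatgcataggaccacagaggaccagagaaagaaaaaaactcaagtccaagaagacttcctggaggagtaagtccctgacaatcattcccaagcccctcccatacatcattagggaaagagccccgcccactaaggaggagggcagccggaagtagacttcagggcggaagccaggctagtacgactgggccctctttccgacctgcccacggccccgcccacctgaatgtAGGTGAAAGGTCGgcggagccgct
Cpt1a (chr19:3323051-3323330, + strand): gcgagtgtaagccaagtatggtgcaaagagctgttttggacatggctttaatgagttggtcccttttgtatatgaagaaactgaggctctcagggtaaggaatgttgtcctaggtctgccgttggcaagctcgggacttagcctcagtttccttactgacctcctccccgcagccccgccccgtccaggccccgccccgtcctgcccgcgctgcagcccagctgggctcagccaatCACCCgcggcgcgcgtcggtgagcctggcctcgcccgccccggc

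CACCC, searched on both strands over the whole windows, was in 9 of the 11 member windows and in 57.5% of all 32851 windows in the table. Every window of Slc27a1 and Acsl1 held it, so the windows with a match are not as many genes. The windows without it were those of Cd36 and Slc25a20, while those of Fabp3 and Cpt2 held 1 match each. The first window of Slc27a1 held 7 matches, and 42 windows, or 0.128% of the table, held that many or more. Its other windows held 3 and 2 matches. GGGCGG was in 8 of 11 member windows and in 35.7% of all windows, and AGGTCA in 2 of 11 and in 16.3%. DR1 was in 2 of 11 member windows and in 3.86% of all windows, at bases -63 to -51 on the reverse strand of Cd36 and 7 to 19 bases after the start of Slc25a20, each with 2 mismatches. A DR1 can contain an AGGTCA match, but the AGGTCA matches of Cd36, at -228 to -223, and of Cpt1a, at -94 to -89, lie outside any DR1. These are matches of letters, and binding was not measured.

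On the KO STZ array Slc27a1, Lpl and Slc25a20 stood lowest against WT STZ: the transport protein was at 40.7% of the WT STZ intensity, the lipase at 60.9% and the carnitine carrier at 61.6%. Slc22a5, at 62.2%, was close to the latter genes, and stood below both after quantile normalization or loess. Slc27a1 alone stayed 1.5-fold lower when the arrays were rescaled. Fabp3 and Cpt2 lay close to 0 in the same comparison. On the WT STZ array 6 of the 9 genes had their highest value, led by Slc25a20 at 157% of WT vehicle and Cd36 at 147%. Under vehicle the genotypes lay closer, and no member differed by 1.5-fold.

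**Figure D1:**
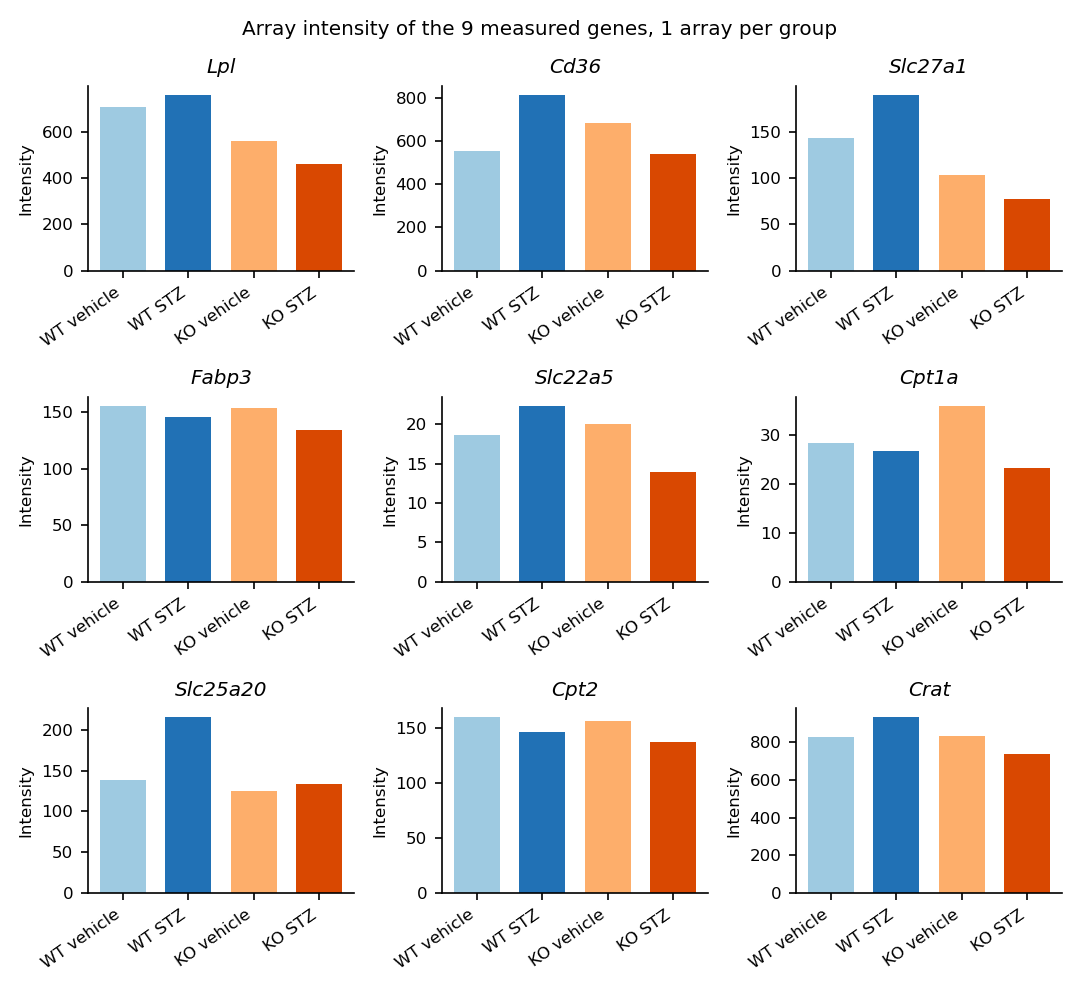
Array intensity (linear, from 0) of the 9 measured genes, 1 bar for each of the WT vehicle, WT STZ, KO vehicle and KO STZ arrays, with no error bars because each group has 1 array. The WT STZ bar is the tallest for 6 genes and the KO STZ bar the lowest for 8, a count that is 5 under each of the 3 rescalings of the arrays.

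Among the genes of release and uptake, Lpl, which encodes lipoprotein lipase, had intensities of 707.2 on WT vehicle, 760.3 on WT STZ, 562.4 on KO vehicle and 462.9 on KO STZ. Both KO arrays were below both WT arrays. The KO difference was -0.33 on the log2 scale under vehicle and -0.71 under STZ. A second, dimmer Lpl cluster read 46.1 on WT vehicle, 63.2 on WT STZ, 39.5 on KO vehicle and 28.3 on KO STZ. It gave the same order of arrays and a larger KO difference under STZ, at -1.06.

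Cd36, the fatty acid translocase, had intensities of 555.5 on WT vehicle, 816.1 on WT STZ, 683.6 on KO vehicle and 543.0 on KO STZ. WT STZ stood highest, and KO STZ was close to WT vehicle. The KO difference was 0.30 under vehicle and -0.58 under STZ, just short of 1.5-fold. The STZ difference was 0.55 among WT arrays and -0.33 among KO arrays. The difference between these STZ effects, -0.88, was at rank 70 from the bottom of 13258 genes.

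Slc27a1, fatty acid transport protein 1, which also has acyl-CoA synthetase activity, had intensities of 143.5 on WT vehicle, 189.8 on WT STZ, 103.1 on KO vehicle and 77.3 on KO STZ. Both KO arrays were below both WT arrays, and the highest array was 2.45 times the lowest, the widest ratio among the members. The KO difference was -0.46 under vehicle, at rank 255 from the bottom, and -1.26 under STZ, at rank 15 from the bottom of 13258. The STZ difference was 0.40 in WT and -0.40 in KO, so the STZ effects differed by -0.79.

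Fabp3, the fatty acid binding protein of heart and skeletal muscle, had intensities of 155.9 on WT vehicle, 146.0 on WT STZ, 153.9 on KO vehicle and 134.4 on KO STZ. The 4 arrays lay within a ratio of 1.16. The KO difference was -0.018 under vehicle and -0.12 under STZ. A second, dim Fabp3 cluster ran from 8.31 on KO STZ to 10.9 on WT STZ.

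Carnitine enters the fibre through OCTN2, the product of Slc22a5. This gene had intensities of 18.6 on WT vehicle, 22.4 on WT STZ, 20.03 on KO vehicle and 13.9 on KO STZ. KO STZ stood below the other arrays, at 62.2% of WT STZ and 69.5% of KO vehicle. The KO difference was 0.090 under vehicle and -0.57 under STZ, and the STZ effects differed by -0.65.

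Of the shuttle genes, Cpt1a encodes the liver form of carnitine palmitoyltransferase 1, which is also present in muscle. Its intensities were 28.4 on WT vehicle, 26.6 on WT STZ, 36.0 on KO vehicle and 23.2 on KO STZ. Its highest array was KO vehicle, and KO STZ was the lowest. The STZ difference was -0.083 in WT and -0.56 in KO, the latter at rank 111 from the bottom. The muscle form, Cpt1b, is read by 1 cluster that the annotation shares with other symbols, so no value is given for it.

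Slc25a20, the carnitine-acylcarnitine carrier, had intensities of 138.1 on WT vehicle, 216.5 on WT STZ, 124.6 on KO vehicle and 133.4 on KO STZ. The WT STZ array stood apart from the other 3. The STZ difference was 0.64 in WT, at rank 120 from the top, and 0.095 in KO. The KO difference was -0.14 under vehicle and -0.68 under STZ. Its lowest array was KO vehicle.

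Cpt2, the inner-membrane palmitoyltransferase, had intensities of 159.8 on WT vehicle, 146.1 on WT STZ, 155.7 on KO vehicle and 137.0 on KO STZ. Its arrays lay within a ratio of 1.17, and their order was that of Fabp3. Over the 4 arrays, centred on each gene's mean, the distance between the log2 values of these genes was 0.025, the shortest of any pair of members. Crat, carnitine acetyltransferase, which moves acetyl groups between coenzyme A and carnitine, had intensities of 827.1 on WT vehicle, 937.0 on WT STZ, 831.9 on KO vehicle and 737.8 on KO STZ. The vehicle arrays were level, and the STZ arrays lay on either side of them. A second Crat cluster, dim at 27.0 to 29.9, did not have this order.

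Under vehicle, the question was how loss of KLF15 bears on these genes without STZ. Of the 9, 4 stood above 0 and 5 below, with a median of -0.018 that turned to 0.019 after removal of a loess trend. None was 1.5-fold higher, against 0.581% of all genes that passed the filter, and none was 1.5-fold lower, against 0.777%. The median over those genes was -0.0039. Slc27a1 at -0.46 and Lpl at -0.33 were the lowest, and Cpt1a and Cd36, both at 0.30, the highest.

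Under STZ all 9 genes stood below 0 in KO against WT, but Fabp3 and Cpt2 stood above 0 under each of the 3 rescalings. Of all genes that passed, 58.1% stood below 0, and of those brighter than percentile 75, 68.6%. The median was -0.57, against -0.048 over all genes that passed and -0.11 over the 7212 genes brighter than percentile 75. At 1.5-fold, 3 of 9 were lower (Lpl, Slc27a1 and Slc25a20), against 2.81% of all genes and 4.08% of the brighter ones. At the same fold 0 were higher, against 0.845% and 0.749%. The split of all genes, 112 higher and 372 lower, was 289 and 186 with centring on bright genes. Among the 9, Slc27a1 alone was lower at 2-fold. After quantile normalization, loess or centring on bright genes, 1 of 9 was 1.5-fold lower, and the median ran from -0.34 to -0.43. Slc27a1 stayed past 1.5-fold in all 6 alternatives of scaling, offset and cluster choice, between -1.28 and -1.09.

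**Figure D2:**
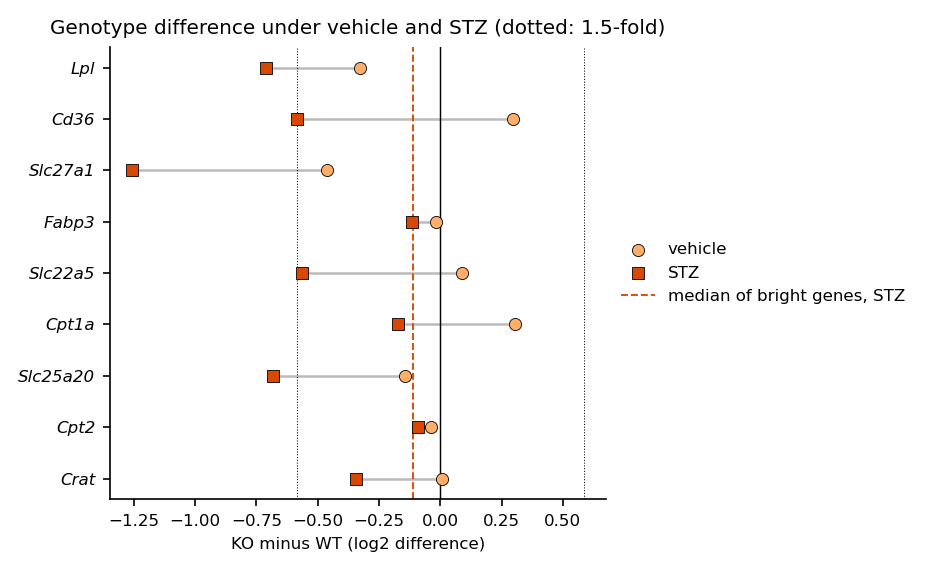
Log2 difference of KO minus WT (x axis) for each measured gene under vehicle (circles) and under STZ (squares), with dotted lines at 1.5-fold and a dashed line at the median of bright genes under STZ, -0.11. Each square lies to the left of its circle; Slc27a1 reaches -1.26, while Fabp3 and Cpt2 lie near the dashed line and turn above 0 when the arrays are rescaled.

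Among WT arrays, 6 of 9 genes stood above 0 for STZ against vehicle, with a median of 0.18 against 0.0076 over all genes. So did 6831 of all 13258 genes and 4097 of the 7212 brighter ones. Slc25a20 was 1.5-fold higher, which is 1 of 9 against 1.27% of all genes and 1.64% of the brighter ones. At the same fold 0 were lower, against 0.445% and 0.458%. Cd36 at 0.55 was next, at rank 215 from the top. Among KO arrays, 8 of 9 members stood below 0, with a median of -0.28 against -0.032. Of all genes 57.0% stood below 0, and of the brighter ones 63.9%. No member was 1.5-fold lower, against 0.656% of all genes, or higher, against 0.445%. The lowest was Cpt1a at -0.56, followed by Slc22a5 at -0.43 and Slc27a1 at -0.40.

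**Figure D3:**
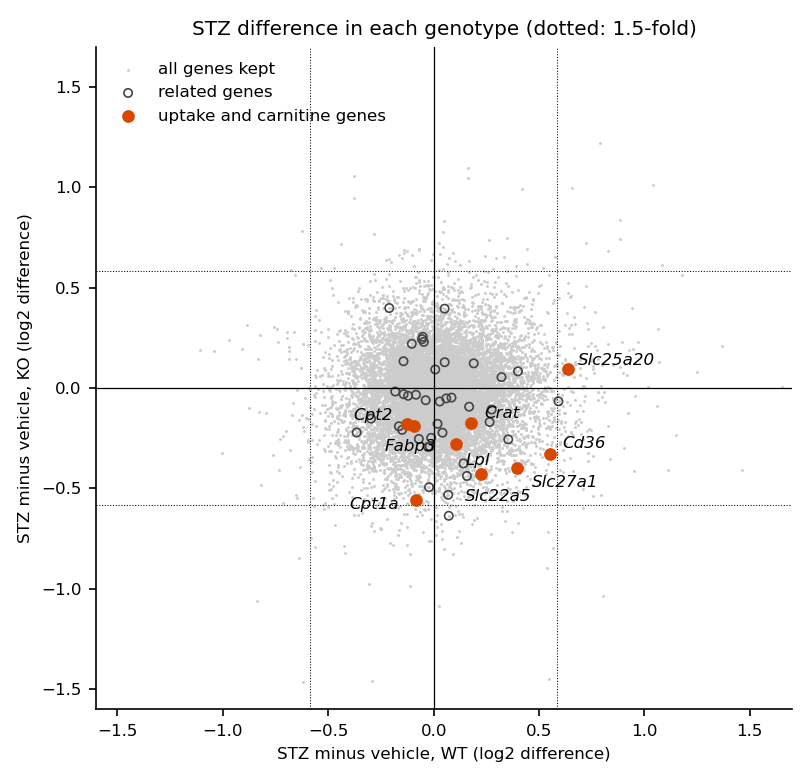
Log2 difference of STZ minus vehicle in WT (x axis) and KO (y axis) for the 9 genes (filled), the 40 related genes (open) and all 13258 genes (grey), with dotted lines at 1.5-fold. Lpl, Cd36, Slc27a1, Slc22a5 and Crat lie to the right of 0 and below 0, and Slc25a20 lies to the right at 0.64 and 0.095.

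Subtracting the STZ effect of the WT arrays from that of the KO arrays compares the responses of the genotypes. This value was below 0 for all 9 genes, although Fabp3 and Cpt2 stood above 0 under each of the 3 rescalings. It was below 0 for 57.1% of all genes that passed and 65.8% of the brighter ones. The median was -0.48, against -0.048 over all genes and -0.098 over the brighter ones. Past 1.5-fold, 3 of 9 were lower (Cd36, Slc27a1 and Slc22a5), against 3.91% of all genes and 4.69% of the brighter ones. At the same fold 0 were higher, against 1.76% and 1.16%. The split of all genes, 233 higher and 519 lower, was 554 and 251 with centring on bright genes. Cd36, between -0.89 and -0.73, and Slc27a1, between -0.81 and -0.66, stayed past 1.5-fold in all 6 alternatives of scaling, offset and cluster choice.

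The highest array was WT STZ for 6 of 9 members and for 32.2% of all genes that passed, or 40.2% of the brighter ones. KO STZ was the lowest array for 8 of 9 members, or 5 of 9 after any of the 3 rescalings, and for 33.5% of all genes and 41.3% of the brighter ones. Lpl, Cd36, Slc27a1, Slc22a5 and Crat had both features, as did 14.2% of all genes and 19.2% of the brighter ones. After each of the 3 rescalings 4 members had both, without Cd36, whose KO STZ array then stood above WT vehicle. For the 5 genes the STZ effect was above 0 in WT and below 0 in KO, also after each rescaling, a pattern held by 28.6% of all genes.

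**Figure D4:**
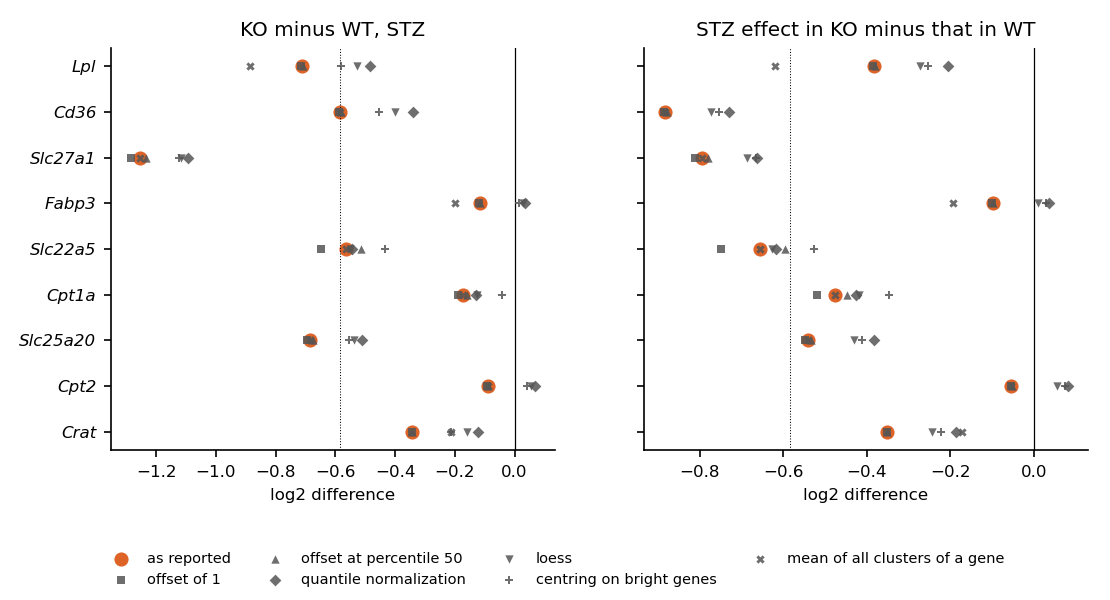
Log2 differences of the 9 genes for KO minus WT under STZ (left) and for the KO minus the WT effect of STZ (right), as reported (large circles) and under 6 alternatives of offset, scaling and cluster choice (small markers), with a dotted line at 1.5-fold lower. Slc27a1 stays left of the dotted line in both panels and Cd36 in the right panel, while Fabp3 and Cpt2 cross 0.

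Of 53 other genes of the same steps, 50 were measured and 40 passed the filter. Past 1.5-fold, 1 of 40 was higher and 1 lower in KO under vehicle, 0 and 3 in KO under STZ, 1 and 0 for STZ in WT, 0 and 1 for STZ in KO, and 1 and 5 for the difference between STZ effects. The shares of all genes, higher and lower, were 0.581% and 0.777% in KO under vehicle and 0.845% and 2.81% in KO under STZ. For STZ they were 1.27% and 0.445% in WT, and 0.445% and 0.656% in KO. For the difference between STZ effects 1.76% of all genes were higher and 3.91% lower. In that comparison the related genes counted 1 and 2 after quantile normalization or loess, and 1 and 0 with centring on bright genes. The 1 gene higher for STZ in WT, Acss1, was not counted after any rescaling. In KO under STZ the related genes counted 1 higher and 2 lower after each rescaling. The higher one was Lmf1, of lipase control, between 0.62 and 0.64. Slc27a4 was the 1 gene higher under vehicle and the 1 lower for STZ in KO. It was not counted in the former after loess, or in the latter with centring on bright genes. The median of the related genes for KO against WT under STZ was -0.12. Of the 40, 28 were below 0, against 58.1% of all genes and 68.6% of the brighter ones. The median turned to 0.011 with centring on bright genes and to 0.013 after quantile normalization. After rescaling, 17 to 21 of these 40 genes were below 0. They thus lay nearer to the genes as a whole than the members did, and the gap was not tested. The lists also differ in level. Some related genes are dim, such as Slc22a4 at 5.41 on KO vehicle and 7.08 on KO STZ, and the scale used understates their differences. The dimmest member, Slc22a5, ran from 13.9 on KO STZ to 22.4 on WT STZ. Members and lists were chosen with earlier results of these data known.

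Among these genes, Acss1, a mitochondrial acetyl-CoA synthetase, had intensities of 82.4 on WT vehicle, 126.0 on WT STZ, 73.7 on KO vehicle and 70.3 on KO STZ. As for Slc25a20, its WT STZ array stood apart from the rest: STZ differed by 0.59 in WT, and KO from WT by -0.81 under STZ. Mlycd, malonyl-CoA decarboxylase, which removes the inhibitor of carnitine palmitoyltransferase 1, read 92.5 on WT vehicle, 123.2 on WT STZ, 67.6 on KO vehicle and 71.9 on KO STZ. Both of its KO arrays were below both WT arrays, by -0.43 under vehicle and -0.75 under STZ.

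Fabp4, a binding protein of fat cells and capillary endothelium, had intensities of 933.6 on WT vehicle, 1194 on WT STZ, 912.0 on KO vehicle and 763.2 on KO STZ, with a KO difference of -0.64 under STZ, or -0.43 to -0.51 after rescaling, short of 1.5-fold. Slc27a4, another transport protein, read 11.9 on WT vehicle, 12.7 on WT STZ, 19.8 on KO vehicle and 11.4 on KO STZ. Only KO vehicle stood apart, and Slc27a4 differed by 0.59 between genotypes under vehicle and by -0.64 between STZ and vehicle in KO. Prkag3, a muscle subunit of the kinase AMPK, read 250.1 on WT vehicle, 215.7 on WT STZ, 157.4 on KO vehicle and 208.7 on KO STZ, so its KO vehicle array was the lowest. Its KO difference was -0.66 under vehicle and -0.047 under STZ, the latter turning above 0 under each rescaling. Acsf2, an acyl-CoA synthetase family member, and Aldh9a1, an enzyme of carnitine synthesis, were counted only for the difference between STZ effects, at -0.60 each. With centring on bright genes both stood at -0.47 and were not counted, and Aldh9a1 was not counted after quantile normalization or loess either.

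Of 14 regulators, 13 passed the filter. Klf15 was lower in KO by -1.20 under vehicle and -1.94 under STZ. Ppara, the PPAR of fatty acid oxidation, had intensities of 34.9 on WT vehicle, 24.3 on WT STZ, 34.1 on KO vehicle and 22.5 on KO STZ, so both STZ arrays were below both vehicle arrays, and the genotypes differed by -0.028 under vehicle and -0.096 under STZ, or by 0.036 under STZ with centring on bright genes. Ppargc1a, the coactivator of oxidative metabolism, read 136.9 on WT vehicle, 110.7 on WT STZ, 187.4 on KO vehicle and 114.8 on KO STZ, and the STZ difference in KO, -0.69, was past 1.5-fold. Ppard, the main PPAR of muscle, ran from 51.1 to 61.4 over the 4 arrays, and Esrra, a nuclear receptor of mitochondrial genes, from 89.0 on KO vehicle to 125.4 on KO STZ. Neither was past 1.5-fold in any comparison. Foxo1 stood higher in KO than in WT under STZ by 0.56, short of 1.5-fold, and by 0.67 to 0.69 after rescaling, past it.

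For KO against WT under STZ and for the difference between STZ effects, the medians of fat cell and slow fibre markers stood below 0, as those of the members did. Of 11 adipocyte markers 8 passed the filter (Adig and Lep did not, and Cfd was not matched), and their summed intensity with those under the filter was 1420 on WT vehicle, 1594 on WT STZ, 1570 on KO vehicle and 1068 on KO STZ. Fabp4, which endothelium also holds, makes up most of each sum, followed by Scd1, with 291.2 on WT vehicle, 188.5 on WT STZ, 395.7 on KO vehicle and 140.8 on KO STZ. Under vehicle, 7 of 8 were above 0 in KO against WT, with a median of 0.22, unlike the members' median of -0.018. Under STZ 7 of 8 were below 0 in the same comparison, with a median of -0.42; 6 of 8 were below 0 with centring on bright genes. For the difference between STZ effects all 8 were below 0, also after each rescaling, with a median of -0.75. At 1.5-fold 6 of the 8 were lower for this difference, or 5 after each rescaling, against 3.91% of all genes. For KO against WT under STZ 2 of 8 were 1.5-fold lower, or 0 to 1 after rescaling, against 2.81% of all genes. Of 10 slow fibre markers, all above the array median on every array, the sum was 2030 on WT vehicle, 2328 on WT STZ, 1932 on KO vehicle and 1607 on KO STZ. Under STZ all 10 were lower in KO than in WT, or 9 of 10 after quantile normalization or centring on bright genes, with a median of -0.49. At 1.5-fold 3 of these 10 were lower, also after each rescaling. The members counted 3 of 9, or 1 after each rescaling. For the difference between STZ effects 5 of the 10 slow fibre markers were 1.5-fold lower, or 2 to 3 after rescaling. Under vehicle 6 of 10 stood below 0 in KO against WT, with a median of -0.26. The slow fibre median for STZ against vehicle was 0.19 in WT and -0.21 in KO, where the members had 0.18 and -0.28. The part of these cells and fibres in the values of Lpl, Cd36, Slc27a1 and the other members was not tested.

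The 12 endothelium markers, in the cells that carry lipoprotein lipase and also hold CD36, summed to 847 on WT vehicle, 855 on WT STZ, 985 on KO vehicle and 913 on KO STZ. Their median for KO against WT under STZ was 0.018, with 6 above and 6 below 0, and was 0.11 to 0.15 after rescaling. Under vehicle 11 of 12 were above 0 in KO against WT, with a median of 0.14. For the difference between STZ effects 10 of 12 were below 0, or 6 to 8 after rescaling, with a median of -0.20, from medians of 0.13 for STZ in WT and -0.19 for STZ in KO; the part of endothelium in the members' values was not tested. For KO against WT under STZ, fast fibre and muscle identity markers had a median of -0.041, which turned above 0 under each rescaling. The 9 of 10 macrophage markers past the filter had a median of 0.18, and the summed intensity of all 10 was 397 on WT STZ and 418 on KO STZ.

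**Figure D5:**
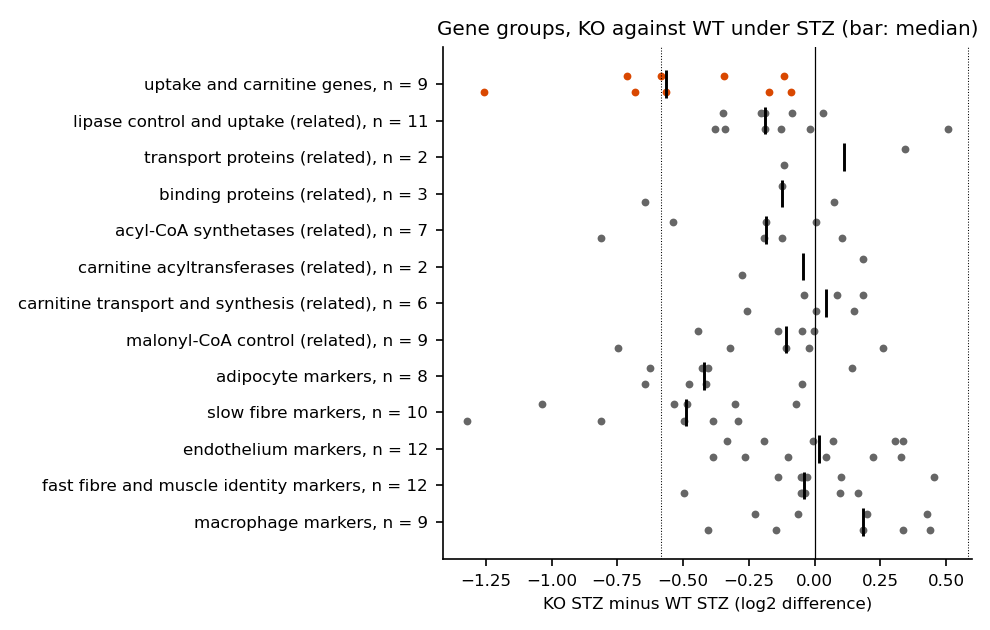
Log2 difference of KO STZ minus WT STZ (x axis) for each gene (points) of the uptake and carnitine genes, the related genes by step and the cell type markers, with the median of each group as a bar and dotted lines at 1.5-fold. The medians are -0.57 for the uptake and carnitine genes, -0.49 for slow fibre markers and -0.42 for adipocyte markers, while that of endothelium markers is 0.018.

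The genes with the values most like the median of the members, by distance over the 4 arrays after centring on each gene's mean, were Kmt2c (0.037), Mcrip2 (0.037), Rab28 (0.039), Slc39a10 (0.040) and Zfp467 (0.042). For Cd36 they were Plekha3 (0.025), Coro2b (0.043) and Exosc7 (0.083). With 4 values per gene among 13258 genes, close matches carry no statement on function or control.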

How the data were processed

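Per the labels, total RNA of gastrocnemius was column purified, and 4 ug was turned into biotin-labelled cRNA for 4 Affymetrix arrays. The deposited table gives 41345 clusters, each with a linear intensity on every array; how the authors corrected background, summarised probes and normalized was not given in the sources used. Of the clusters, 23521 had 1 symbol in the annotation, 1814 several and 16010 were not listed; 23328 were matched to RefSeq genes by Entrez number, which changed 0 symbols.

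Intensities were turned into log2(intensity + 3.69). Array medians lay within 0.035 on that scale, and no scaling was applied. A gene was kept when the mean of its brightest cluster over arrays exceeded that of the median cluster, an intensity of 5.81. Counting was tested on simulated data. The 5 comparisons, counted at 1.5-fold, use 1 array per group, so no test, p-value or error was made, and the number of arrays limits the precision. Named were all members, related genes past 1.5-fold as reported or after rescaling, a few fixed regulators, Foxo1, and the genes most like the members. The members and lists were chosen with earlier results of these data known. The 9 alternatives were 2 offsets, 3 scalings, the mean of a gene's clusters, 2 filters and a 2-fold count. Python 3.11.15, numpy 2.4.6, pandas 2.3.3, statsmodels 0.14.6 and matplotlib 3.10.9 were used.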

Additional observations from a re-analysis of the deposited data

Results flagged for a closer look

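For 6 members the STZ differences of WT and KO, or the KO differences under vehicle and STZ, lay on opposite sides of 0. These are differences of single arrays, and none was tested. STZ against vehicle was above 0 in WT and below 0 in KO for Lpl, Cd36, Slc27a1, Slc22a5 and Crat. The same held for 28.6% of all genes and 33.6% of the brighter ones. The KO minus the WT effect of STZ was -0.38 for Lpl, -0.88 for Cd36, -0.79 for Slc27a1, -0.65 for Slc22a5 and -0.35 for Crat. Over 6 alternatives of offset, scaling and cluster choice it ran from -0.62 to -0.21 for Lpl and from -0.35 to -0.17 for Crat, and the STZ difference of Lpl in WT came as low as 0.0016, after quantile normalization. KO against WT was above 0 under vehicle and below 0 under STZ for Cd36, Slc22a5, Crat and Cpt1a, the last with a difference between STZ effects of -0.48. The vehicle value of Crat, 0.0084, is close to 0 and turns to -0.038 with the mean of its clusters.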

How the results depend on the processing

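No paired analysis was possible because each group has 1 array. Of 45 member differences (9 genes in 5 comparisons), 38 kept their sign in the 6 alternatives of offset, scaling and cluster choice, and of 7 past 1.5-fold, 3 stayed past it. The other 7 signs belong to Fabp3 and Cpt2 in KO against WT under each treatment and in the difference between STZ effects, and to Crat under vehicle. For KO against WT under STZ the member median was -0.34 after quantile normalization, -0.40 after loess, -0.43 with centring on bright genes and -0.46 over the 8 members above percentile 75 of level. Under STZ the count of members lower was 5 with an offset of 1, and 1 after quantile normalization, loess, centring on bright genes or counting at 2-fold. With an offset of 1, Cpt1a was the 1 member counted lower for STZ in KO. For STZ in WT the count of members higher was 0 after quantile normalization, centring on bright genes or at 2-fold, and the median was 0.070 after quantile normalization. For the difference between STZ effects the median was -0.35 with centring on bright genes, and 0 members were lower at 2-fold. Under vehicle the median was 0.019 after loess. Centring on bright genes moved the median of all genes for KO under STZ from -0.048 to 0.084. All genes past 1.5-fold numbered, higher and lower, 112 and 372 for KO under STZ (156 and 243 after quantile normalization, 133 and 255 after loess, 289 and 186 with centring), 233 and 519 for the difference between STZ effects (290 and 369, 273 and 396, 554 and 251), 169 and 59 for STZ in WT (122 and 69, 155 and 68, 110 and 98) and 59 and 87 for STZ in KO (73 and 78, 70 and 73, 98 and 52). With an offset of 1 or at percentile 50, KO under vehicle counted 141 or 47 higher and 176 or 78 lower, KO under STZ 211 or 71 higher, STZ in WT 258 higher and 120 lower, STZ in KO 144 or 33 higher and 168 or 54 lower, and the difference between effects 454 or 149 higher. Fewer genes were tested above percentile 75 and fewer passed 2-fold: KO under vehicle counted 38 higher and 58 lower, then 3 and 10, KO under STZ 54 and 294, then 7 and 38, STZ in WT 118 and 33, then 13 and 3, STZ in KO 23 and 47, then 5 and 6, and the difference between effects 84 and 338, then 18 and 33. The number of arrays, 1 per group, limits every value, and dim genes such as Slc22a5 lie nearer to background.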
